A study of Mus musculus with 15 samples.

Results

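Motile cilia genes are the genes that build and control the beating cilia of multiciliated cells. The 40 examined here were chosen by name, from knowledge of the motile ciliary axoneme and of the factors that switch it on. They were chosen with earlier results of these data known. Of the 40, 27 had a row among the 16729 genes of the expression table. The other 13 (*Mcidas*, *Gmnc*, *Cdc20b*, *Deup1*, *Ccdc39*, *Dnah6*, *Dnah7a*, *Dnah9*, *Dnali1*, *Lrrc23*, *Spag16*, *Tekt1* and *Cfap44*) had no row in the table used here, so their expression was not analysed here. RNA was sequenced from epithelial organoids of the mouse endometrium, small hollow cultures grown in Matrigel from isolated uterine epithelium, to compare genetic with pharmacological loss of TGFβ signaling through SMAD2 and SMAD3.

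All mice carried *Smad2*flox/flox and *Smad3*flox/flox alleles in a background that mixed the strains C57BL/6J and 129S5/SvEvBrd. Control organoids, which had these alleles without Cre, were grown with the vehicle DMSO (control + vehicle, n = 3) or with A83-01, an inhibitor of the TGFβ type 1 receptors ALK4, ALK5 and ALK7 (control + A83-01, n = 4). *Smad2/3* cKO organoids came from mice that also carried *Ltf-cre* and were grown with DMSO (*Smad2/3* cKO, n = 4) or with A83-01 (*Smad2/3* cKO + A83-01, n = 4). *Ltf-cre* is driven by the lactoferrin gene, which is active in uterine epithelium and responds to estradiol, and Cre was induced by giving the mice estradiol at weaning, so *Smad2* and *Smad3* could be deleted only in cells that had expressed *Ltf*. The mice were adults, the organoids had been passaged for several weeks, and each sample was labelled as a separate replicate, so the p-values measure the spread between these samples. The sample names also carry a number, which same-numbered control replicates share, as do *Smad2/3* cKO replicate 2 and *Smad2/3* cKO + A83-01 replicate 1, and also a control and a *Smad2/3* cKO replicate. Whether it stands for a mouse is not given in the sources used here. Values are the authors' normalized counts, in which each sample's estimated counts were scaled by a size factor, and they summed to between 20241771 and 24423127 per sample. The commonest low value in each sample, taken as that of 1 read, put the depth at 18.5 to 23.3 M reads in 14 samples and at 43.3 M in *Smad2/3* cKO + A83-01 replicate 3. A normalized count of 10 therefore stood for about 10 reads, except in that sample.

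A motile cilium has a ring of microtubule doublets around a central pair, and it beats when dynein arms slide neighbouring doublets past each other under control of the radial spokes and the nexin-dynein regulatory complex. In multiciliated cells MCIDAS and GMNC start the program, MYB and TRP73 act early, FOXJ1 and the RFX factors switch on the axonemal genes, and DEUP1, CCNO and CDC20B serve the mass production of centrioles. Motile cilia line the oviduct and the human endometrium, whereas most epithelial cells of the mouse uterus carry at most a single primary cilium, which lacks dynein arms and is built by intraflagellar transport.

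The targeted genes were examined first. *Smad2* had normalized counts of 1335, 1132 and 1045 in control + vehicle, 970.0, 1062, 984 and 912 in control + A83-01, 924, 863, 892 and 821 in *Smad2/3* cKO and 813, 1211, 854 and 804 in *Smad2/3* cKO + A83-01. The lowest control + vehicle value was above every *Smad2/3* cKO value, but the difference did not pass the thresholds (log2 fold change -0.41 ± 0.14 (SE), limma adjusted p = 0.0656). *Smad3* had 1532, 1741 and 1599 in control + vehicle and 1169.6, 1640.1, 1516 and 1977 in *Smad2/3* cKO, and the groups overlapped (log2 fold change -0.07 ± 0.18 (SE), limma adjusted p = 0.827). These are values for the whole gene, in which the floxed exons cannot be told from the rest, so they do not check the genotype labels on their own.

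The motile cilia genes were low in these organoids. Of the 27 with a row, 14 (51.9%) had a mean of at least 10 normalized counts over the 15 samples and 1 had a mean of at least 100, while 78.1% of all genes in the table had a mean of at least 10. Among the 27 the median of the means was 11.6, against 294.9 over all genes. Only 8 of the 27, *Rfx2*, *Rfx3*, *Myb*, *Ccdc40*, *Ccdc65*, *Rsph9*, *Cfap52* and *Pifo*, lay above 3 normalized counts in every sample, and 6 of the 27, *Trp73*, *Dnah5*, *Dnah11*, *Spag6l*, *Tekt2* and *Cfap53*, lay at 10 or below in every sample. None was at 3 or below in all 15. Per kilobase of exon, the median over the 27 was 2.78 normalized counts per kb, compared with 58.3 over 48 genes of intraflagellar transport and the primary cilium and 8827 over 8 epithelial markers. All 48 of those intraflagellar transport and primary cilium genes had a mean of at least 10, and 42 had a mean of at least 100. A second list of motile cilia genes, with 78 of 106 matched genes in the table, had a median of 5.90 per kb. Its highest gene, *Tubb4b*, is a beta tubulin of many cell types and made up 53.4% of that list's summed counts. The plot of level per length by gene list shows these distances.

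**Figure D1:**
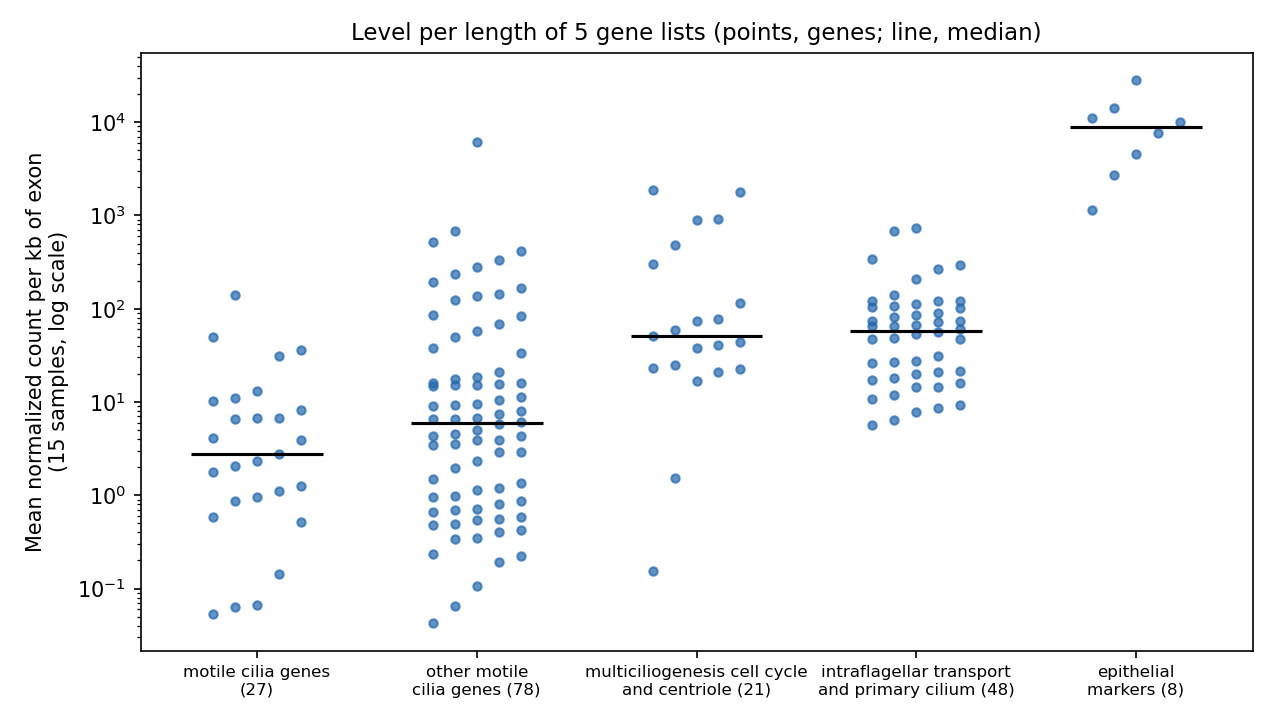
Each point is a gene, with its mean normalized count per kb of exon over 15 samples on a log scale, and each line is the median of a list. The 27 motile cilia genes have a median of 2.78 per kb, against 5.90 for the other motile cilia genes, 51.3 for the genes of the multiciliogenesis cell cycle and centrioles, 58.3 for intraflagellar transport and the primary cilium and 8827 for the epithelial markers.

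Epithelial markers were high in every sample. *Krt18*, a keratin of simple epithelia, averaged 40537 normalized counts over the 15 samples and *Epcam*, an epithelial adhesion molecule, 24456, and these or *Krt8* were the highest epithelial markers in each sample. Of 9 stromal markers 7 had a row, with a median of 6.65 normalized counts and *Pdgfra*, *Pdgfrb*, *Col1a2*, *Col3a1* or *Dcn* the highest, depending on the sample, and *Hoxa11* and *Hand2* had none. Smooth muscle and endothelial markers were also low, with summed counts of 29.9 to 219.3 and 12.8 to 69.0 per sample. *Tagln* or *Acta2* was the highest muscle gene and *Vwf* or *Cdh5* the highest endothelial gene in a sample, and *Myh11*, *Actg2*, *Kdr*, *Tek* and *Emcn* had no row. Among the leukocyte markers *Cd68*, a macrophage protein, averaged 4142 normalized counts and made up 87.5% of the summed list, while the median of the list was 102.8. In bulk RNA, fewer cells of a type cannot be told apart from less RNA per cell.

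*Foxj1*, a transcription factor that switches on axonemal genes, was nearly confined to the control + vehicle organoids. There it had 9.57, 15.4 and 4.39 normalized counts, or an estimated 9.87, 17.2 and 4.91 reads. In control + A83-01 it had 2.47, 1.11, 0 and 0, in *Smad2/3* cKO 0.946, 0, 0 and 0, and in *Smad2/3* cKO + A83-01 it was listed at 0 in all 4 samples. Every control + vehicle sample lay above every sample of the other 3 groups. The gene (chr11:116330704-116335399, minus strand, GRCm38) was too low for the main fit, which took genes averaging 10 normalized counts or more. In the fit without that minimum its log2 fold change, on the log2(normalized count + 1) scale, was -2.57 ± 0.70 (SE) with A83-01 in control organoids (limma adjusted p = 0.0641) and -3.05 ± 0.64 for *Smad2/3* cKO against control + vehicle (limma adjusted p = 0.0125), neither past the threshold of 0.01. In the other 3 groups at most an estimated 1.96 reads lay behind a sample (control + A83-01 replicate 1), so small differences between them were not detectable at this depth.

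*Myb*, a transcription factor of dividing progenitors that also acts early in multiciliated cells, was the highest of the 27 by count in 2 of the 3 control + vehicle samples. It had 270.3, 422 and 117 normalized counts there, 119, 167, 17.6 and 50.04 in control + A83-01, 48.7, 41.7, 78.4 and 22.9 in *Smad2/3* cKO and 50.7, 24.5, 33.5 and 13.4 in *Smad2/3* cKO + A83-01. The *Smad2/3* cKO samples all lay below the control + vehicle samples, while 2 of the 4 control + A83-01 samples lay above the lowest of them. In each of the 3 same-numbered control pairs it was lower with A83-01, and with the pair as a block the log2 fold change was -1.72 (limma adjusted p = 0.0359). The log2 fold change was -2.41 ± 0.53 (SE) in *Smad2/3* cKO against control + vehicle (limma adjusted p = 0.0138) and -1.85 ± 0.76 with A83-01 in control organoids (limma adjusted p = 0.191), so neither passed. Leaving out 1 sample at a time, the *Smad2/3* cKO difference ranged from -1.997 without control + vehicle replicate 2 (limma adjusted p = 0.0622) to -2.92 without replicate 3, the lowest control, which alone passed (limma adjusted p = 0.00828). Its exons share 559 bases (6.26%) with the antisense transcript Gm26577 on the other strand, and the library kit does not mark strand.

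Leukocytes can also express *Myb*, and their markers were therefore read beside it. Of the 7 leukocyte markers 6 had a row and *Cd3e* had none. The summed list stood at 2108, 1277 and 2935 in control + vehicle and at 2118, 4902, 5834 and 4804 in *Smad2/3* cKO organoids, with *Cd68* the highest in all 15 samples. With A83-01 it stood at 5253, 3417, 5889 and 8805 in control and at 5432, 4034, 8017 and 6162 in *Smad2/3* cKO organoids. *Ptprc*, the leukocyte common antigen, rose from 12.5, 17.4 and 38.5 to 223, 309, 123 and 248 with the *Smad2/3* cKO (log2 fold change 3.33 ± 0.46 (SE), limma adjusted p = 0.00228). It was the only 1 of 5 leukocyte markers tested in that comparison to pass by limma, and 4 did not. The log2 fold change was above 0 for 4 of the 5 and below 0 for 1. The summed smooth muscle markers were 219, 144 and 73.9 in control + vehicle and 48.4, 62.9, 46.2 and 36.7 in *Smad2/3* cKO organoids, and of the 2 tested *Acta2* fell (log2 fold change -3.12, limma adjusted p = 0.00841) and *Tagln* did not pass (log2 fold change 0.44, limma adjusted p = 0.512). The summed stromal markers were 101, 201 and 31.8 in control + vehicle and 8.63, 7.43, 24.7 and 21.6 in *Smad2/3* cKO organoids, without overlap, and *Col1a2*, the 1 tested, did not pass (log2 fold change -3.70, limma adjusted p = 0.0398). The summed epithelial markers were 223389, 175641 and 200512 in control + vehicle and 100199, 96262, 155039.6 and 104219 in *Smad2/3* cKO organoids, with *Cldn4* lower (log2 fold change -2.55, limma adjusted p = 0.00455). The summed gland and secretory markers, of which *Ltf* was the highest in 9 samples and *Lcn2* in 6, were 959459, 690267 and 589958 in control + vehicle and 246924, 455018, 346214 and 157661 in *Smad2/3* cKO organoids. *Ltf* made up 53.2% of that sum, and over the 8 tested the median log2 fold change was -0.07, with 3 genes above 0 and 5 below. *Prss29*, a serine protease of the uterine glands, was listed at 0 in all 3 control + vehicle samples and had 16.3, 123, 157 and 322 in control + A83-01 and 188, 383, 6403 and 293 in *Smad2/3* cKO, and it passed in both comparisons (limma adjusted p = 0.00469 and 0.000988). The summed luminal markers, with *Sprr2f* the highest in all 15 samples, were 116383, 115018 and 93854 in control + vehicle and 40023, 52473, 65344 and 49571 in *Smad2/3* cKO organoids, without overlap, and 0 of 8 passed by limma, with 4 at an unadjusted p below 0.05, against 33.7% of all genes. In control + A83-01 the summed smooth muscle markers were 55.1, 50.4, 35.4 and 29.9, below all control + vehicle samples. The summed luminal markers were 81741, 74920, 62199 and 44161 there, also without overlap. None of the tested genes of these 2 lists passed by limma in that comparison. The summed stromal, epithelial and gland markers overlapped between control + A83-01 and control + vehicle. The part of these cell populations in the values of the motile cilia genes was not tested.

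The other regulators with a row did not pass the thresholds or were too low to be tested. *Rfx2*, an RFX factor of ciliary genes, averaged 48.5 ± 15.4 normalized counts (SD, n = 3) in control + vehicle, 61.6 ± 25.7 (SD, n = 4) in control + A83-01, 58.4 ± 23.3 (SD, n = 4) in *Smad2/3* cKO and 70.3 ± 30.4 (SD, n = 4) in *Smad2/3* cKO + A83-01. Its relative *Rfx3*, which also serves primary cilia, averaged 24.6 ± 18.7, 17.7 ± 5.18, 14.1 ± 9.85 and 22.5 ± 15.6 in the same order. Both overlapped between all groups, and the 95% intervals of their log2 fold changes reached from -0.86 to 1.39 for *Rfx2* and from -1.70 to 1.41 for *Rfx3* with A83-01 in control organoids. In *Smad2/3* cKO against control + vehicle the log2 fold change was 0.24 for *Rfx2* (limma adjusted p = 0.728) and -0.69 for *Rfx3* (limma adjusted p = 0.593). *Trp73* was listed at 0 in 9 of 15 samples and reached 5.20 at most. *Ccno*, the 1 centriole amplification gene with a row, had 1.94, 2.70 and 0.892 normalized counts in control + vehicle and 3.76, 0.969, 8.83 and 9.69 in *Smad2/3* cKO, and the groups overlapped.

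**Figure D2:**
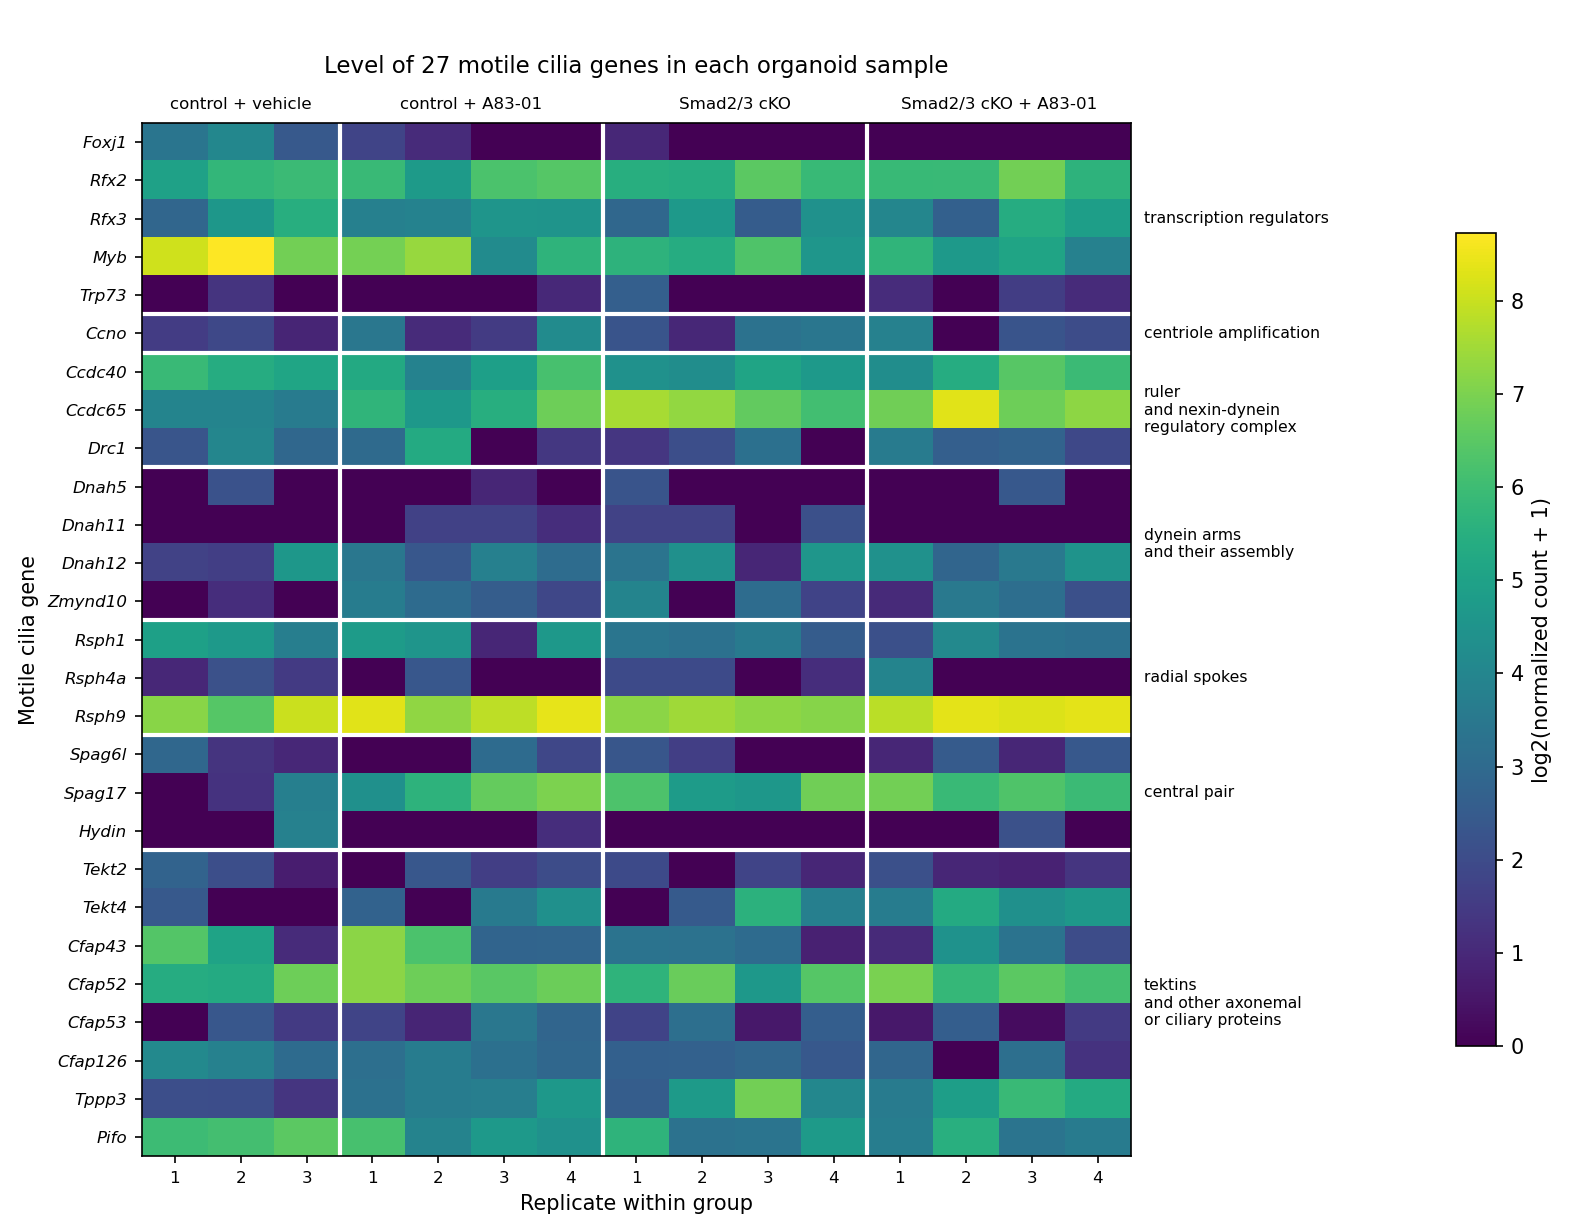
Rows are the 27 genes with a row in the table, ordered by role, columns are the 15 samples by group, and color is log2(normalized count + 1). Foxj1 is above 3 normalized counts only in the 3 control + vehicle samples, Ccdc65 and Spag17 are lowest in that group, and Rsph9 is high throughout.

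The thresholds were an adjusted p below 0.01 and a 1.4-fold change either way. Among the tested genes of the 27, *Ccdc65* was the only one past them in any of the 4 comparisons. It encodes a subunit of the nexin-dynein regulatory complex, which holds neighbouring doublets together. Because the result turns on it, the 250 bases before its RefSeq start are shown (chr15:98707944-98708193, plus strand, GRCm38.p6), with the bases CAGAC, the core letters of a SMAD site, in capitals. The same window is shown for *Spag17* (chr3:99885167-99885416, plus strand), which was chosen after its values were seen and holds none of the motifs searched.
Ccdc65: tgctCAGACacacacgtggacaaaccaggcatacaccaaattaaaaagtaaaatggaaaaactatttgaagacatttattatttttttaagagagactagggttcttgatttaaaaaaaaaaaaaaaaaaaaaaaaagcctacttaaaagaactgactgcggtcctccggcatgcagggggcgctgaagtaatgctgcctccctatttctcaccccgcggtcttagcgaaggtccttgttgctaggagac
Spag17: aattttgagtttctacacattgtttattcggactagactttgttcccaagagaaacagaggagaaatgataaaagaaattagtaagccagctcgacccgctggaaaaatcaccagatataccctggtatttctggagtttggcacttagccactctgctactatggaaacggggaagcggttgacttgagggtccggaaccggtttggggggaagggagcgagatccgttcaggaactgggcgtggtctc
The first base of CAGAC in the *Ccdc65* window lay at position -246, counted from -1 at the last base before the start. A RefSeq promoter was found for 35 of the 40 genes and not for *Foxj1*, *Rsph1*, *Rsph4a*, *Tppp3* and *Cfap53*. On either strand, CAGAC was in 15 of the 35 windows (42.9%) and in 42.1% of 26742 promoter windows of the same length. The short RFX site GTTGCC was in 12 of the 35 (34.3%) and in 10.4% of all, the full X-box palindrome in 0 of the 35 and 0.366% of all, and the forkhead letters TGTTTAC in 1 of the 35, *Cfap43* (2.86%), and 3.1% of all. The short site can lie within a full X-box, and a match to these letters is not a measured binding site.

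*Ccdc65* (chr15:98708207-98723336, plus strand, GRCm38) had normalized counts of 14.3, 14.5 and 11.5 in control + vehicle, 50.8, 24.2, 43.3 and 109 in control + A83-01, 189.7, 157, 97.4 and 67.1 in *Smad2/3* cKO and 113, 323, 109.5 and 149 in *Smad2/3* cKO + A83-01. All samples of the 3 other groups lay above all control + vehicle samples, and all *Smad2/3* cKO + A83-01 samples lay above all control + A83-01 samples, the closest pair being 109.5 and 109.4. It rose 8.32-fold in *Smad2/3* cKO against control + vehicle (log2 fold change 3.06 ± 0.44 (SE), limma adjusted p = 0.00263). Among the 13 genes tested in that comparison 1 passed upward and 0 downward, where 4.08% of all genes tested passed upward and 3.3% downward. Leaving out 1 sample at a time gave a log2 fold change of 2.83 to 3.33, and the call was lost without control + vehicle replicate 1 (limma adjusted p = 0.0119) or replicate 2 (limma adjusted p = 0.0125). The call was also lost with a replicate block by the numbers in the sample titles (log2 fold change 3.33, limma adjusted p = 0.0121). With A83-01 in control organoids the log2 fold change was 1.81 ± 0.56 (SE, limma adjusted p = 0.0905). *Ccdc65* was higher with A83-01 in each of the 3 same-numbered control pairs. With the pair as a block that log2 fold change was 1.43 (limma adjusted p = 0.119). The exons of *Ccdc65* shared no bases with another annotated gene.

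Among the 27 genes with a row, the others of the regulatory complex and the ruler did not pass the thresholds. *Gas8*, from the second list of motile cilia genes, is described below. *Ccdc40*, a component of the ruler that sets the axonemal repeat, had 59.1, 41.1 and 33.7 normalized counts in control + vehicle and 20.3, 18.4, 33.0 and 25.3 in *Smad2/3* cKO. All 4 *Smad2/3* cKO samples lay below the controls, yet the difference missed the thresholds (log2 fold change -0.85 ± 0.43 (SE), limma adjusted p = 0.201). In *Smad2/3* cKO + A83-01 it had 18.2, 41.5, 87.0 and 60.4, overlapping both. *Drc1*, another subunit of the same complex as *Ccdc65*, ranged from 0 to 39.0 normalized counts over the 15 samples and was tested in 1 comparison (A83-01 in control organoids, log2 fold change -0.64 ± 1.24 (SE), limma adjusted p = 0.821).

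*Spag17*, a protein of the central pair, had 0, 1.44 and 12.6 normalized counts in control + vehicle. It had 19.8, 48.6, 101 and 128 in control + A83-01, 77.0, 26.8, 23.8 and 114 in *Smad2/3* cKO and 115, 59.0, 79.1 and 60.6 in *Smad2/3* cKO + A83-01. The 12 samples of those 3 groups all lay above the control + vehicle samples. The log2 fold change was 4.24 ± 0.99 (SE) with A83-01 in control organoids (limma adjusted p = 0.0356) and 3.95 ± 0.97 for *Smad2/3* cKO against control + vehicle (limma adjusted p = 0.0219), so neither passed at 0.01. Both differences use the same 3 control + vehicle samples. In each of the 3 same-numbered control pairs *Spag17* was higher with A83-01. With the pair as a block that log2 fold change was 3.88 (limma adjusted p = 0.0111), which also did not pass. Leaving out 1 sample at a time, the *Smad2/3* cKO difference ranged from 3.11 without control + vehicle replicate 1 (limma adjusted p = 0.0739) to 4.99 without replicate 3 (limma adjusted p = 0.00817), which alone passed. Over the other alternatives it ranged from 2.14 with a pseudocount of 10 to 5.28 with a pseudocount of 0.1. The log2 fold change with A83-01 was 0.62 in *Smad2/3* cKO organoids, and its difference from that in control organoids, -3.62 ± 1.13 (SE), did not pass (limma adjusted p = 0.137). The gene (chr3:99885406-100143322, plus strand, GRCm38) shares 820 exon bases, 9.66% of its exons, with *Wdr3* on the other strand. It also shares 516 exon bases (6.08%) with the antisense transcript Spag17os, which had no row. *Wdr3* ranged from 1049 to 2183 normalized counts over the 15 samples, and reads from the shared bases cannot be assigned to either gene with certainty. The other central pair genes were low, with *Hydin* listed at 0 in 12 of 15 samples and *Spag6l* at 7.24 or below.

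**Figure D3:**
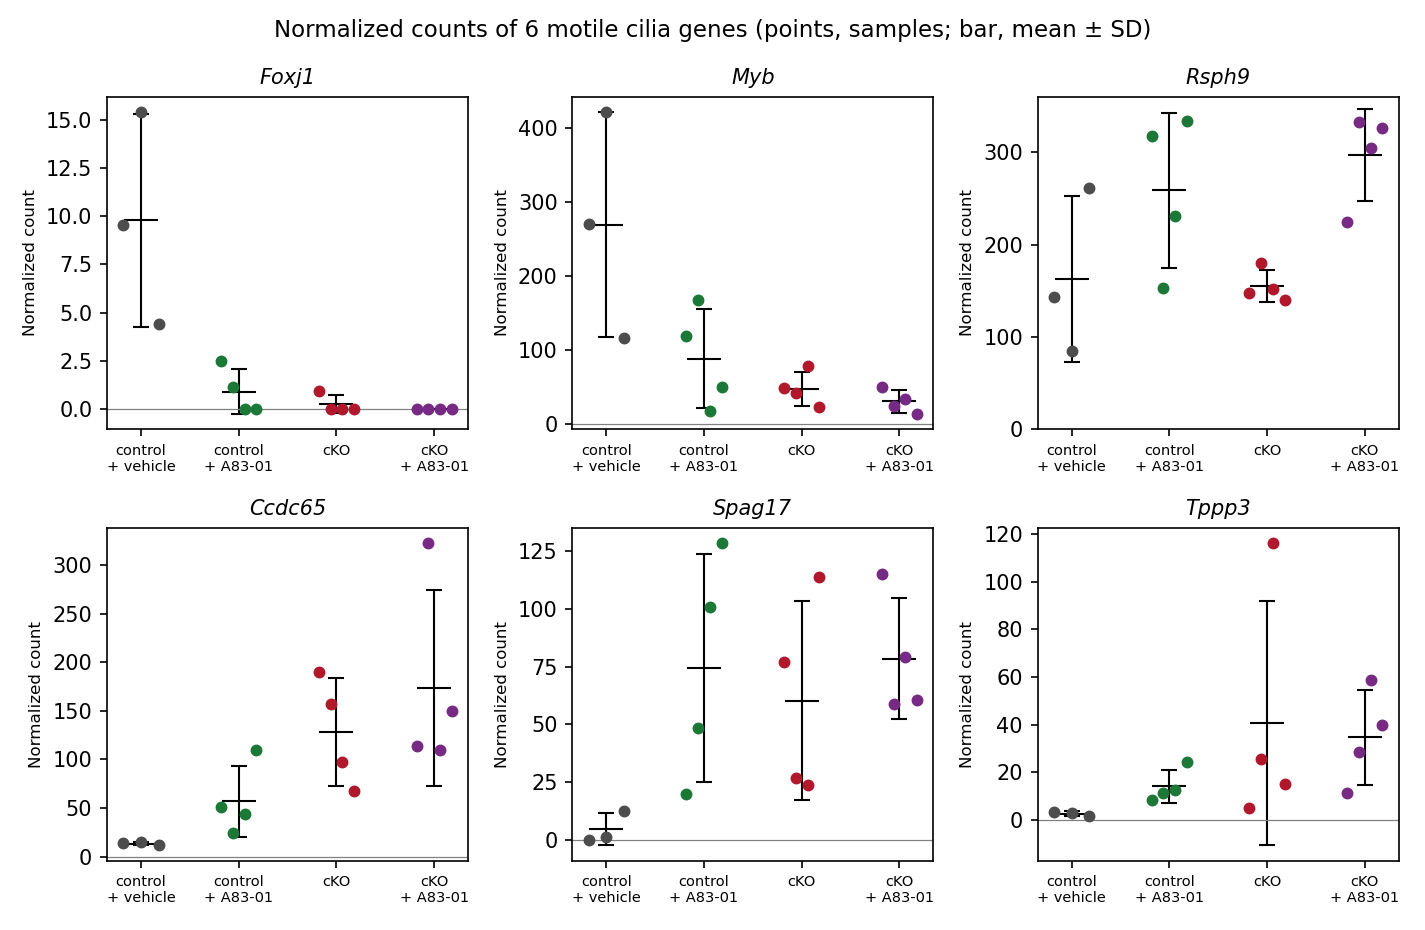
Points are the normalized counts of single samples and bars are the mean ± SD (n = 3 in control + vehicle, n = 4 in the other groups), on a linear scale with an axis per gene. For Ccdc65 and Spag17 the 12 points of the other groups lie above the 3 control + vehicle points, for Foxj1 they lie below them, and for Rsph9 the groups overlap except Smad2/3 cKO and Smad2/3 cKO + A83-01.

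*Rsph9*, a protein of the radial spoke head, was the highest of the 27 genes per length (138.7 normalized counts per kb over the 15 samples). It was also the highest of them by count in 11 of 15 samples. It had 143, 84.7 and 261 normalized counts in control + vehicle, 318, 153, 231 and 334 in control + A83-01, 147, 179.7, 152 and 140.0 in *Smad2/3* cKO and 225, 332, 305 and 326 in *Smad2/3* cKO + A83-01. All 4 *Smad2/3* cKO + A83-01 samples lay above all 4 *Smad2/3* cKO samples (log2 fold change 0.93 ± 0.20 (SE), unadjusted p = 0.000838, limma adjusted p = 0.994), which did not pass after adjustment over 12998 genes. It was the 1 gene of the 27 whose groups did not overlap in that comparison (3.7%), against 1.7% of all genes higher, 1.03% lower and 2.73% in either direction. The level of *Rsph9* was not matched by the other spoke head genes, since *Rsph4a* was listed at 0 in 7 of 15 samples and *Rsph1* had a mean of 14.2 normalized counts, or 10.3 per kb. *Rsph1* had 29.9, 25.6 and 12.1 in control + vehicle and 9.54, 8.59, 11.1 and 4.86 in *Smad2/3* cKO (log2 fold change -1.26 ± 0.60 (SE), limma adjusted p = 0.171), without overlap.

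The dynein genes among the 27 were low. *Dnah5*, the heavy chain of the outer arm, was listed at 0 in 11 of 15 samples and *Dnah11*, another outer arm heavy chain, in 9, and neither exceeded 4.25 normalized counts. *Dnah12*, an inner arm heavy chain, averaged 11.6 over the 15 samples, or 0.964 per kb, with overlapping groups. *Zmynd10*, which is needed to assemble dynein arms in the cytoplasm, had 0, 1.18 and 0 in control + vehicle and 11.5, 7.31, 5.02 and 2.66 in control + A83-01, without overlap. It was too low for the main fit and did not pass without the minimum (log2 fold change 2.42 ± 0.65 (SE), limma adjusted p = 0.0614).

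Among tektins and other axonemal proteins, *Tppp3*, a protein that promotes tubulin assembly, had 3.28, 3.15 and 1.52 normalized counts in control + vehicle, 8.48, 11.6, 12.4 and 24.2 in control + A83-01, 5.01, 25.7, 116 and 15.3 in *Smad2/3* cKO and 11.5, 28.7, 58.8 and 39.7 in *Smad2/3* cKO + A83-01. Every sample of the last 3 groups lay above the control + vehicle samples, and *Smad2/3* cKO replicate 3 stood far above its group. The log2 fold change in *Smad2/3* cKO organoids was 2.73 ± 0.97 (SE, limma adjusted p = 0.0817). With A83-01 in control organoids it was 2.00 ± 0.58 (SE, limma adjusted p = 0.0833) in the fit without the minimum.

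*Pifo*, a protein linked to disassembly of the primary cilium, had 61.8, 67.8 and 90.6 normalized counts in control + vehicle, 72.1, 13.8, 24.9 and 20.3 in control + A83-01 and 50.4, 8.76, 9.20 and 26.0 in *Smad2/3* cKO. The *Smad2/3* cKO range was wholly below that of the controls, with a log2 fold change of -1.93 ± 0.63 (SE, limma adjusted p = 0.0637). *Tekt4*, a filament protein of the doublets, averaged 1.48 ± 2.56 (SD, n = 3) in control + vehicle, 9.004 ± 8.31 (SD, n = 4) in control + A83-01, 16.3 ± 21.8 (SD, n = 4) in *Smad2/3* cKO and 23.8 ± 11.7 (SD, n = 4) in *Smad2/3* cKO + A83-01. Among the 4 pairwise comparisons it was tested where A83-01 was added to both or to *Smad2/3* cKO organoids, and it passed in neither. *Cfap52*, a protein inside the doublet microtubules and 35.9 normalized counts per kb over the 15 samples, overlapped between all groups. *Cfap126*, a protein of the ciliary base, averaged 7.27 over the 15 samples and was tested with A83-01 in control organoids only (log2 fold change -0.41 ± 0.61 (SE), limma adjusted p = 0.754). *Cfap43* varied widely, from 0.751 to 146.3 over the 15 samples. It was higher with A83-01 in each of the 3 same-numbered control pairs, where the log2 fold change with the pair as a block was 1.25 (limma adjusted p = 0.173). Without pairing it was 0.61. Leaving out 1 sample at a time, this unpaired value turned direction, from -0.95 without control + vehicle replicate 3 to 1.72 without replicate 1. Its log2 fold change of -2.08 ± 1.15 (SE) between *Smad2/3* cKO + A83-01 and control + A83-01 did not pass (limma adjusted p = 0.634).

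**Figure D4:**
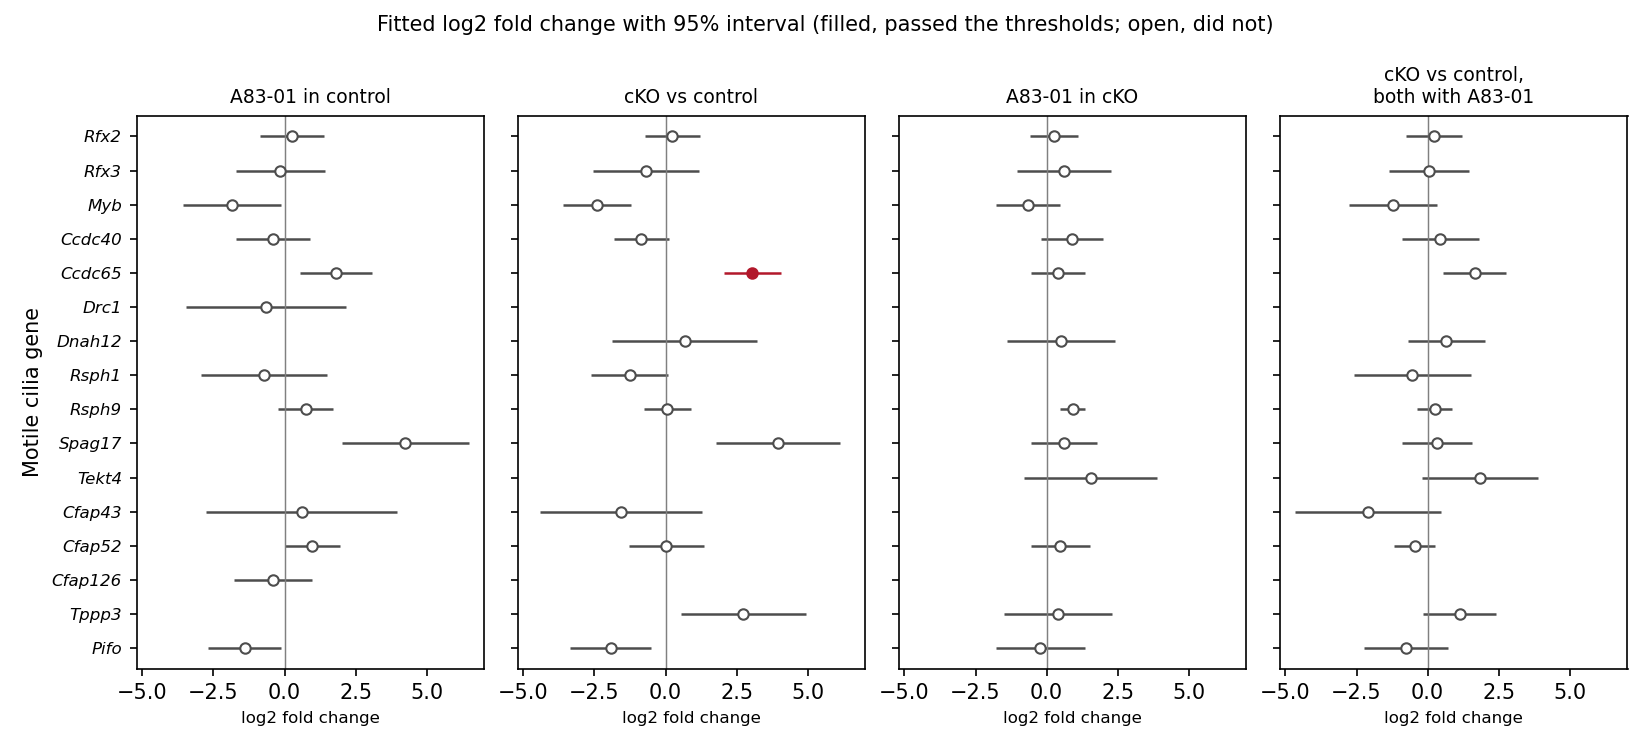
Each point is the fitted log2 fold change of a gene with its 95% interval, in 4 comparisons, and genes under a mean of 10 in a comparison are left blank. Ccdc65 in Smad2/3 cKO against control + vehicle is the only filled point, at 3.06, and Spag17 lies at 4.24 and 3.95 in the first and second comparison.

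Counted over the list, 0 of 13 genes tested passed with A83-01 in control organoids by limma, where 1.19% of all genes tested passed upward, 1.08% downward and 2.27% in either direction, and 5 of the 13 (*Spag17*, *Ccdc65*, *Pifo*, *Myb* and *Cfap52*) had an unadjusted p below 0.05, as did 22.2% of all genes. Over all 27 genes with a row, whatever their level, the groups did not overlap for 5 (18.5%), 4 higher and 1 lower, against 8.73% of all genes higher, 10.1% lower and 18.8% in either direction. The median log2 fold change was -0.15 over the 13 and -0.02 over all genes tested. In *Smad2/3* cKO against control + vehicle, where 7.38% of all genes passed in either direction, the groups did not overlap for 9 of the 27 (33.3%), against 26.4% of all genes (12.7% higher and 13.6% lower). Of these, *Ccdc65*, *Spag17* and *Tppp3* were higher and *Foxj1*, *Myb*, *Pifo*, *Rsph1*, *Cfap126* and *Ccdc40* were lower. The median over the 13 tested was 0.03 against 0.00 over all genes, and some of the 13, such as *Spag17* and *Tppp3*, reached the minimum mean of 10 only through the group where they were high.

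With A83-01 in *Smad2/3* cKO organoids 0 of 12 genes passed by limma, as did 0 of all 12998 genes tested, and 1 of the 12 had an unadjusted p below 0.05, against 4.26% of all genes. The median log2 fold change was 0.50 over the 12 and 0.00 over all genes. Between the genotypes with A83-01 in both, 0 of 14 passed by limma, against 0.0232% of all genes, and 1, *Ccdc65*, had an unadjusted p below 0.05, against 9.52% of all genes (log2 fold change 1.65 ± 0.50 (SE), limma adjusted p = 0.320). *Ccdc65* was also the 1 gene of the 27 whose groups did not overlap (3.7%), against 3.13% of all genes higher, 2.32% lower and 5.44% in either direction. When the effect of A83-01 was compared between the genotypes, 0 of 14 passed by limma, against 0.0995% of all genes upward, 0.452% downward and 0.551% in either direction, and 1, *Spag17*, had an unadjusted p below 0.05, against 14.3% of all genes.

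The mean of log2(normalized count + 1) over the 27 genes, given as a description, was 3.06 ± 0.15 (SD, n = 3) in control + vehicle, 3.32 ± 0.20 (SD, n = 4) in control + A83-01, 3.09 ± 0.15 (SD, n = 4) in *Smad2/3* cKO and 3.27 ± 0.17 (SD, n = 4) in *Smad2/3* cKO + A83-01. The ranges overlapped between all groups. Between 15 and 20 of the 27 genes lay above 3 normalized counts in a sample.

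Related genes were taken from lists written by name. Of 49 other motile cilia genes tested with A83-01 in control organoids 0 rose and 1 fell, where 1.19% of all genes tested rose and 1.08% fell. This was *Tuba1a*, an alpha tubulin of many cell types, at 2912, 2798 and 2218 normalized counts in control + vehicle and 719.7, 545, 598 and 540.4 in control + A83-01 (log2 fold change -2.13 ± 0.18 (SE), limma adjusted p = 0.000431). In *Smad2/3* cKO against control + vehicle, where 4.08% of all genes rose and 3.3% fell, 0 of 46 rose and 2 fell, a share near that of all genes. These were *Tuba1a* again (log2 fold change -2.76 ± 0.43, limma adjusted p = 0.00355) and *Gas8*, a further subunit of the nexin-dynein regulatory complex (log2 fold change -0.90 ± 0.16, limma adjusted p = 0.00670). *Gas8* had 924, 689 and 743 in control + vehicle and 457, 385, 411 and 423 in *Smad2/3* cKO organoids, without overlap, so that 2 subunits of the complex passed in opposite directions.

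Of 19 tested genes for the cell cycle and centrioles of multiciliogenesis, 1 rose in *Smad2/3* cKO organoids, where 4.08% of all genes did so. This was *E2f5*, an E2F factor that works with MCIDAS and GMNC, at 405, 494 and 501 in control + vehicle and 975, 841, 806 and 1209 in *Smad2/3* cKO (log2 fold change 1.02 ± 0.18 (SE), limma adjusted p = 0.00605). None of the 19 passed with A83-01 in control organoids, where 3 (and 22.2% of all genes) had an unadjusted p below 0.05, and *Cdkn1a*, a cell cycle inhibitor, was the highest of the list in all 15 samples (mean 6649). Of 48 genes of intraflagellar transport and the primary cilium 0 rose and 2 fell in *Smad2/3* cKO organoids, a share near the 3.3% of all genes that fell. These were *Dync2li1*, a light intermediate chain of the dynein that carries cargo back from the tip (log2 fold change -1.31 ± 0.24, limma adjusted p = 0.00669), and *Ift122*, a subunit of the same retrograde transport (log2 fold change -1.30 ± 0.25, limma adjusted p = 0.00832). With A83-01 in control organoids 0 of the 48 passed and 6 had an unadjusted p below 0.05, against 22.2% of all genes. Per sample, the highest of the 48 by count was *Ift43*, *Ift20*, *Kif3a*, *Ift46* or *Ift52*, all of the transport machinery. In the other comparisons none of these 3 lists held a gene past the thresholds by limma.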

How the data were processed

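The authors extracted total RNA from the organoids, made libraries with a low-input kit (SMART-Seq v4), estimated counts per gene with Salmon 1.4.0 on GRCm39 and normalized them with DESeq2 1.32.0. The deposited values, treated as signal, are estimated counts divided by 1 size factor per sample. Each sample's median ratio to the geometric mean of all samples came to the same 1.01137. Between 5.48% and 12.9% of low values lay at whole multiples (within 0.01) of the value of 1 read, so whole reads were not recovered and no count model was used. 0 columns were of no sample.

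Groups were taken from the labels. For each comparison, limma 3.58.1 under R 4.3.3 (lmFit, eBayes with trend) was run on log2(normalized count + 1) in the samples of the 2 groups, for genes averaging 10 or more there. All tests were two-sided. A gene passed at a Benjamini-Hochberg adjusted p below 0.01 over all genes tested and a 1.4-fold change either way. Fold changes on this scale understate changes of low genes. The effect of A83-01 was compared between genotypes as a contrast over all 15 samples. On simulated data with known changes, the fits were tested before use. The members and lists were chosen with earlier results of these data known.

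Genes named in the text are the targeted genes, the regulators and centriole genes, every gene past the thresholds, the 3 with the largest change that did not pass in each comparison, genes of the 3 other cilia and centriole lists past the thresholds, the most abundant gene of each list per sample, and markers and examples of each role, which were chosen after their values were seen. Alternatives were the pseudocount, the minimum mean, quantile normalization, eBayes without trend, sample weights, other thresholds, a replicate block, the series of the label number as covariate, all 4 groups in 1 fit, and leaving out each sample. In the control groups, samples with the same number deviated together (correlations 0.354 to 0.423 over 3 pairs), against a mean of -0.133 over the other pairs. However, control + A83-01 replicate 4 and control + vehicle replicate 3, whose numbers differ, reached 0.3475. *Smad2/3* cKO replicate 2 and *Smad2/3* cKO + A83-01 replicate 1, which share a number, reached 0.355. *Smad2/3* cKO replicate 1 and *Smad2/3* cKO + A83-01 replicate 2, whose numbers differ, reached 0.394. These correlations therefore cannot show whether a shared number marks a pair. Positions are those of GRCm38 (GENCODE), with promoters from RefSeq for GRCm38.p6, whereas the authors aligned to GRCm39. Exon length is the union of annotated exons. Figures were drawn with matplotlib.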

Additional observations from a re-analysis of the deposited data

Results flagged for a closer look

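In groups of 4, a sample was singled out when its gap to the nearest other sample, divided by the range of the group on the log2(normalized count + 1) scale, was above Dixon's critical value for 95% confidence, over 45 combinations of a group with a motile cilia gene of mean at least 10 or with their mean level. Chance gives about 1 in 20, and 4 were found. *Rsph1* was at 0.932 in control + A83-01 replicate 3, against 22.6 to 26.8 in the other 3. *Cfap43* was at 0.751 in *Smad2/3* cKO replicate 4, against 7.29 to 8.92. *Pifo* was at 43.9 in *Smad2/3* cKO + A83-01 replicate 2, against 9.22 to 11.9. The mean level of the 27 genes was 3.31 in *Smad2/3* cKO replicate 1, against 3.00 to 3.03.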

How the results depend on the processing

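With A83-01 in control organoids the number of motile cilia genes past the thresholds was 0 and became 1 (*Spag17*) with sample weights, at an adjusted p below 0.05, with the series of the label number as covariate and with all 4 groups in the fit. In *Smad2/3* cKO against control + vehicle it was 1 and became 3 (*Ccdc65*, *Myb* and *Spag17*) at an adjusted p below 0.05, 2 (*Ccdc65* and *Spag17*) with all 4 groups in the fit, and 0 to 3 when 1 sample was left out. With the replicate block, by the numbers in the sample titles, it was 0 (*Ccdc65*, limma adjusted p = 0.0121). In that comparison same-numbered samples share only a number (correlations 0.0153 to 0.0774 over 3 pairs). The replicate block changed no other call, and the counts of the other comparisons stayed at 0 under every alternative run. The mean level of the 27 genes differed by 0.26 (control + A83-01 minus control + vehicle), 0.03 (*Smad2/3* cKO minus control + vehicle), 0.18 (*Smad2/3* cKO + A83-01 minus *Smad2/3* cKO) and -0.05 (*Smad2/3* cKO + A83-01 minus control + A83-01). Over only the genes with a mean of at least 10 the first 3 became 0.61, 0.30 and 0.42. Some of these genes, such as *Spag17* and *Tppp3*, reached that mean only through the groups where they were high. These larger values are therefore partly fixed by the choice of genes. The fourth difference ranged from -0.15 to 0.11 over the alternatives run. Leaving out 1 sample gave 0.18 to 0.35, -0.04 to 0.12, 0.10 to 0.25 and -0.13 to 0.03. Any other cause of these changes was not tested. The label number series could not be used as covariate where a group held 1 series only, as all *Smad2/3* cKO + A83-01 samples do. Most of the genes rest on under 100 reads per sample, which limits what could be detected.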
